A study of Sus scrofa with 18 samples.

Results

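The genes of fatty acid oxidation and of the peroxisome were followed in the liver of 21-day-old piglets (Sus scrofa) that had been reared on 1 of 3 diets. Members were taken by symbol from the array's annotation: gene families for fatty acid activation, acyl-CoA hydrolysis, the carnitine shuttle, mitochondrial and peroxisomal β-oxidation, electron transfer, peroxisome assembly (PEX) and the PPAR receptors, plus HSD17B4, SLC25A20, CRAT and DECR1. The rule found 73 probe sets for 53 genes, of 6765 named genes and 23935 probe sets tested. Where several probe sets read 1 gene, the one with the largest mean log2 ratio stands for it; 16 of the 53 genes had more than 1 probe set. EHHADH, PEX5 and PEX11A, which belong to the same pathways, were not analysed here.

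Suckling piglets were compared with piglets moved on day 2 to an infant formula made from cow's milk (milk formula) or from soy, and all livers were collected on day 21. Both sexes were used, which gave 6 groups (female and male, each on sow milk, milk formula or soy formula) with 3 RNA pools a group and 1 array a pool, 18 arrays in all. How many animals went into a pool is not given in the sources used here. P-values therefore reflect only how pools of 1 group varied, which may be technical. No strain, genotype or drug treatment is given for any group, and suckled piglets differed from formula-fed piglets in nursing as well as in diet. With 3 arrays a group, their number limits the precision.

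Fatty acids enter β-oxidation as acyl-CoA thioesters. Acyl-CoA synthetases make these esters, carnitine carries long-chain ones across the mitochondrial membranes, and a repeated cycle of dehydrogenation, hydration, a second dehydrogenation and thiolysis shortens the chain. Double bonds of unsaturated fatty acids need auxiliary isomerases and a reductase, and electrons of the first step reach the respiratory chain through the electron transfer flavoprotein. Peroxisomes, which are built by peroxins, shorten very long and branched chains. In liver, PPAR alpha is the receptor best known for raising the transcription of these genes when fatty acids are plentiful, as they are in the suckling newborn.

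The deposited value was an expression ratio on a linear scale, so arrays could be compared for 1 gene but not 1 gene with another. The median ratio over the arrays was 1 (within 0.002) for 38 of the 53 members (71.7%, against 41.8% of named genes), and below 1 for the other 15. All 10 measured hepatocyte markers had a median ratio of 1, as did 7 of 8 macrophage markers, and none of the lymphocyte, granulocyte, cholangiocyte and adipocyte markers did. Arrays of the sexes stood apart before any diet was considered. Hybridisation controls averaged a ratio of 2.25 (1.51 to 3.02) on the 9 male arrays and 0.331 (0.255 to 0.491) on the 9 female arrays. The 28S ribosomal RNA probe set averaged 3.57 in males and 0.182 in females, and the GAPDH 3′ over 5′ ratio 0.658 and 1.11. The parts of this GAPDH value are deposited ratios, each with its own unstated divisor, so it serves only to compare arrays. Pools also varied more among males: the median residual SD of the members was 0.332 on the log2 scale in males and 0.154 in females (0.343 and 0.149 over all named genes). Diets were therefore compared within a sex, and a difference over both sexes averages the female and the male difference.

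The words rose and fell are kept for genes whose limma test had a Benjamini-Hochberg adjusted p, over all probe sets tested, under 0.05. Over both sexes, 3 members rose and 1 fell on soy formula against sow milk. ACADL, the long-chain acyl-CoA dehydrogenase, rose 2.42-fold, ACSL3, an acyl-CoA synthetase of the endoplasmic reticulum and lipid droplets, 1.85-fold, and ECI2, a peroxisomal enoyl-CoA isomerase, 1.67-fold. CPT1C, a carnitine palmitoyltransferase isoform known mainly from neurons, was 1.41-fold lower. The 3 higher calls were 5.66% of the members, where 2.68% of named genes were called higher. The 1 lower call was 1.89%, where 2.94% were called lower. On milk formula against sow milk CPT1C fell 1.55-fold and no member rose, against backgrounds of 0.606% lower and 0.887% higher. Between soy and milk formula limma called 0 members, where 0.443% of named genes were called higher and 0.828% lower. An unadjusted p under 0.05 was found there for 11 of the 53 members, beside 952 of 6765 named genes (14.1%). Such changes are of RNA in whole liver, where fewer cells of a type and less RNA per cell cannot be told apart.

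Within females, in a fit to their 9 arrays alone, soy formula against sow milk gave 6 members higher (ACADL, ACSL3, DECR1, ACSL1, ECI2 and ETFDH) and 1 lower (CPT1C). These were 11.3% and 1.89% of the members, and 6.22% and 4.95% of named genes were called in those directions. Against milk formula, female soy pools had 4 members higher (ACADL, DECR1, ETFDH and ACADM) and 0 lower, 7.55% and 0% of the members beside 2.32% and 1.35% of named genes. Milk formula against sow milk in females gave 0 higher and 1 lower, CPT1C, with backgrounds of 0.636% and 0.798%. With all 18 arrays in 1 fit, the female calls left were ACADL, ACSL3 and CPT1C on soy formula against sow milk, and 0 against milk formula. Within males limma called 0 members in each of the 3 comparisons. Of the 53 members, 9 had an unadjusted p under 0.05 on milk formula against sow milk. On soy formula against sow milk it was 4, and on soy against milk formula 4. Of 6765 named genes, 518 (7.66%), 690 (10.2%) and 511 (7.55%) did so in these comparisons. Backgrounds of adjusted calls in males were 0.192% higher and 0.0443% lower, 0.266% and 0.222%, and 0% and 0%. A direct test of the difference between sexes called 0 members in each comparison, against 0.0148% of named genes for both formulas against sow milk and 0% for soy against milk formula. Unadjusted, 3, 5 and 10 of the 53 members had p under 0.05 in these tests. Among 6765 named genes the counts were 426 (6.30%), 585 (8.65%) and 576 (8.51%). Calls in females alone are thus not shown to be sex-specific.

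**Figure D1:**
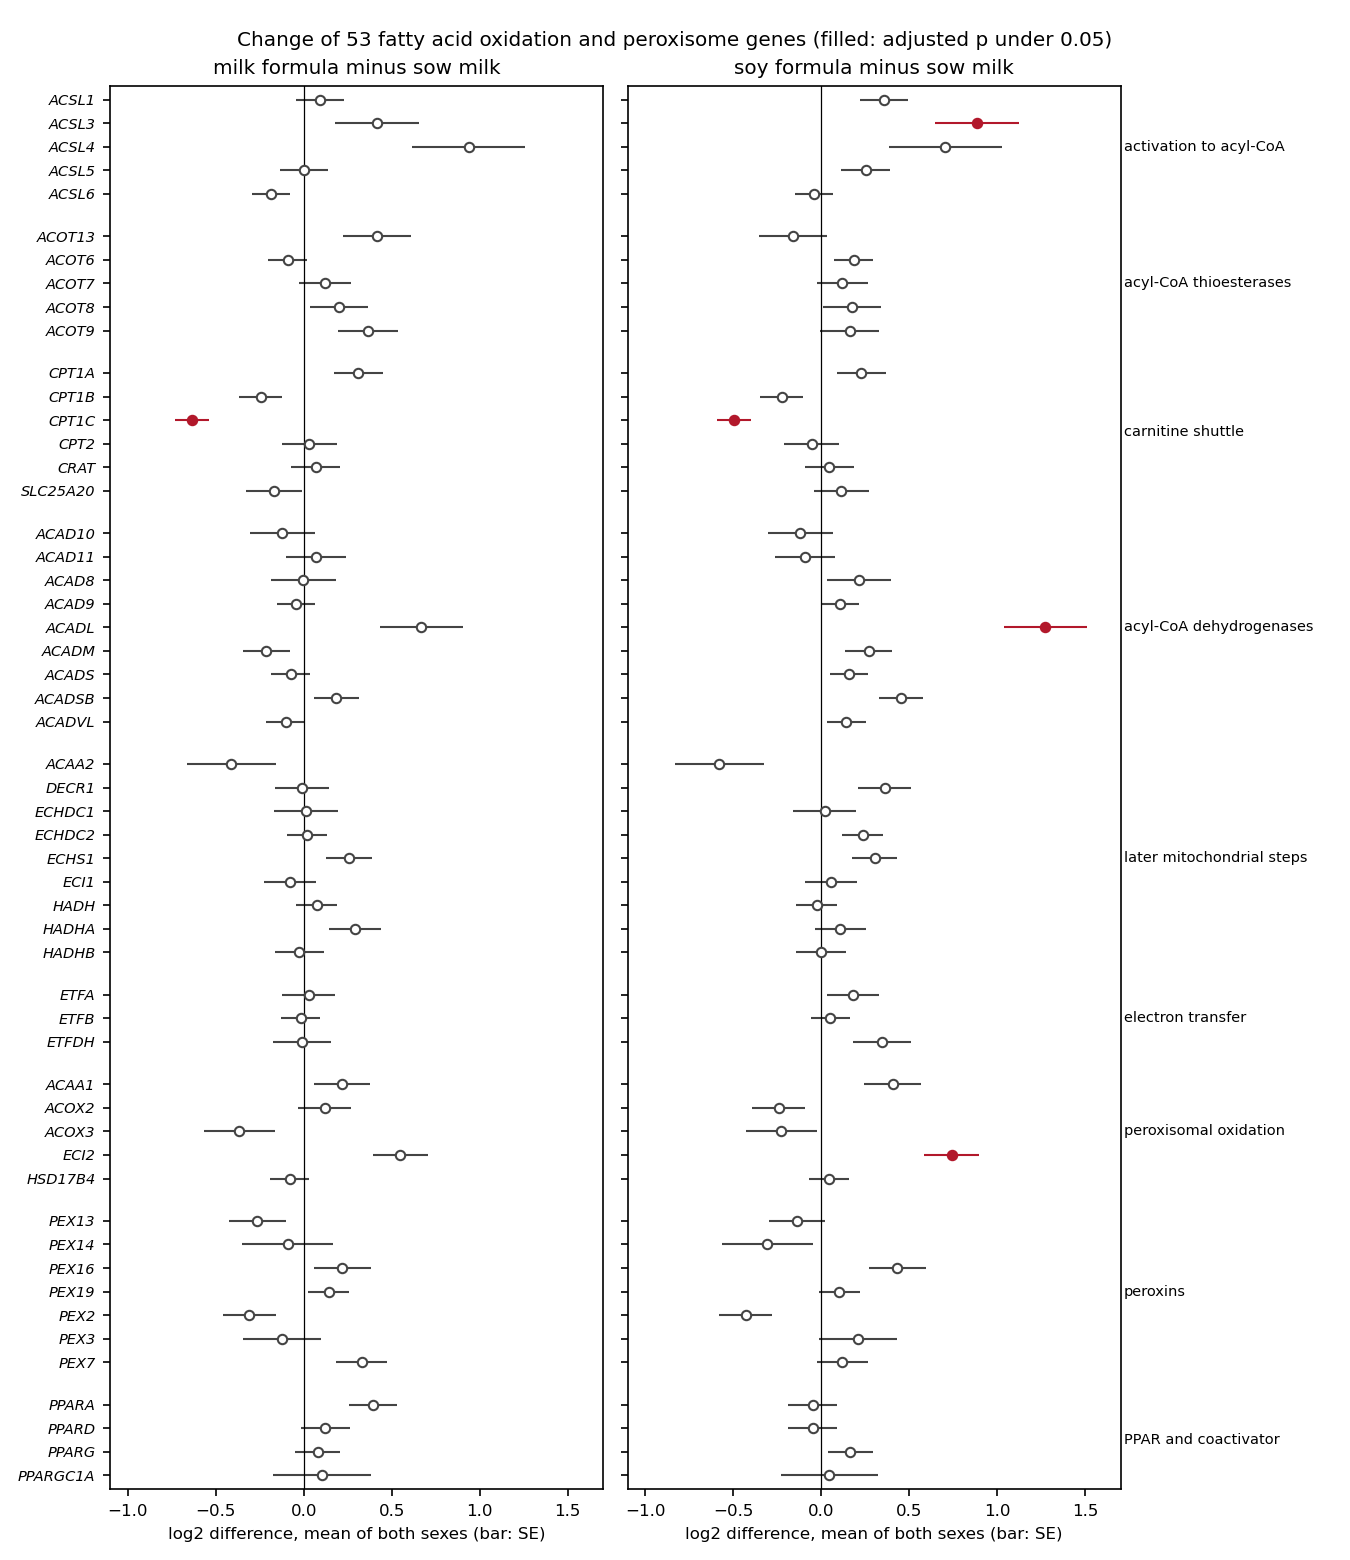
Log2 difference (horizontal axis) of each of the 53 genes, grouped by role, for milk formula minus sow milk (left) and soy formula minus sow milk (right), as the mean of both sexes with its standard error from limma; 3 pools per sex and diet. Filled red points passed the adjusted p of 0.05: CPT1C at -0.63 on the left, and ACSL3 (0.89), CPT1C (-0.50), ACADL (1.27) and ECI2 (0.74) on the right.

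Activation to acyl-CoA was measured by 5 synthetases, of which 1 rose over both sexes on soy formula, 2 rose in females alone and none fell. In females the ACSL3 ratio was 0.943, 1.28 and 1.09 on sow milk, 2.22, 1.56 and 2.45 on milk formula, and 3.48, 2.97 and 4.58 on soy formula. The 3 diets did not overlap, with every soy pool highest and every sow pool lowest. In males the corresponding ratios were 0.365, 0.721 and 0.621, then 0.461, 0.693 and 0.45, then 0.502, 0.341 and 1.06, and all diets overlapped. The soy-against-sow difference was 0.89 ± 0.24 over both sexes (log2, SE, adjusted p = 0.0468), 1.72 ± 0.20 in females (adjusted p = 0.00112) and 0.05 ± 0.38 in males (adjusted p = 0.994). The male difference minus the female one was -1.67 ± 0.47 (unadjusted p = 0.00232, adjusted p = 0.323). The call over both sexes was lost in 19 of 27 alternatives, with an adjusted p of up to 0.156, while the call in females was kept in all 18.

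ACSL1, the main synthetase of hepatocytes, had ratios of 1.37, 1.56 and 1.21 in female sow pools, 1.54, 1.26 and 1.93 in milk formula pools, and 2.15, 2.19 and 1.97 in soy pools. All 3 soy pools lay above all 6 others, and the rise against sow milk was 0.62 ± 0.15 (adjusted p = 0.0334). It did not pass in 7 of 18 alternatives, among them the loss of each soy pool in turn. Male pools ran from 0.491 to 0.794 over all diets with full overlap (0.09 ± 0.24, adjusted p = 0.971). ACSL4, which prefers arachidonic acid, had the largest change of an uncalled member on milk formula. Its female ratios were 1.83, 2.13 and 0.811 on sow milk, 3.09, 3.64 and 5.24 on milk formula and 3.49, 2.05 and 3.81 on soy. The difference over both sexes was 0.94 ± 0.32 on milk formula (adjusted p = 0.272) and 0.71 ± 0.32 on soy formula (adjusted p = 0.319). ACSL5 and ACSL6 had differences on soy formula of 0.25 and -0.04.

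**Figure D2:**
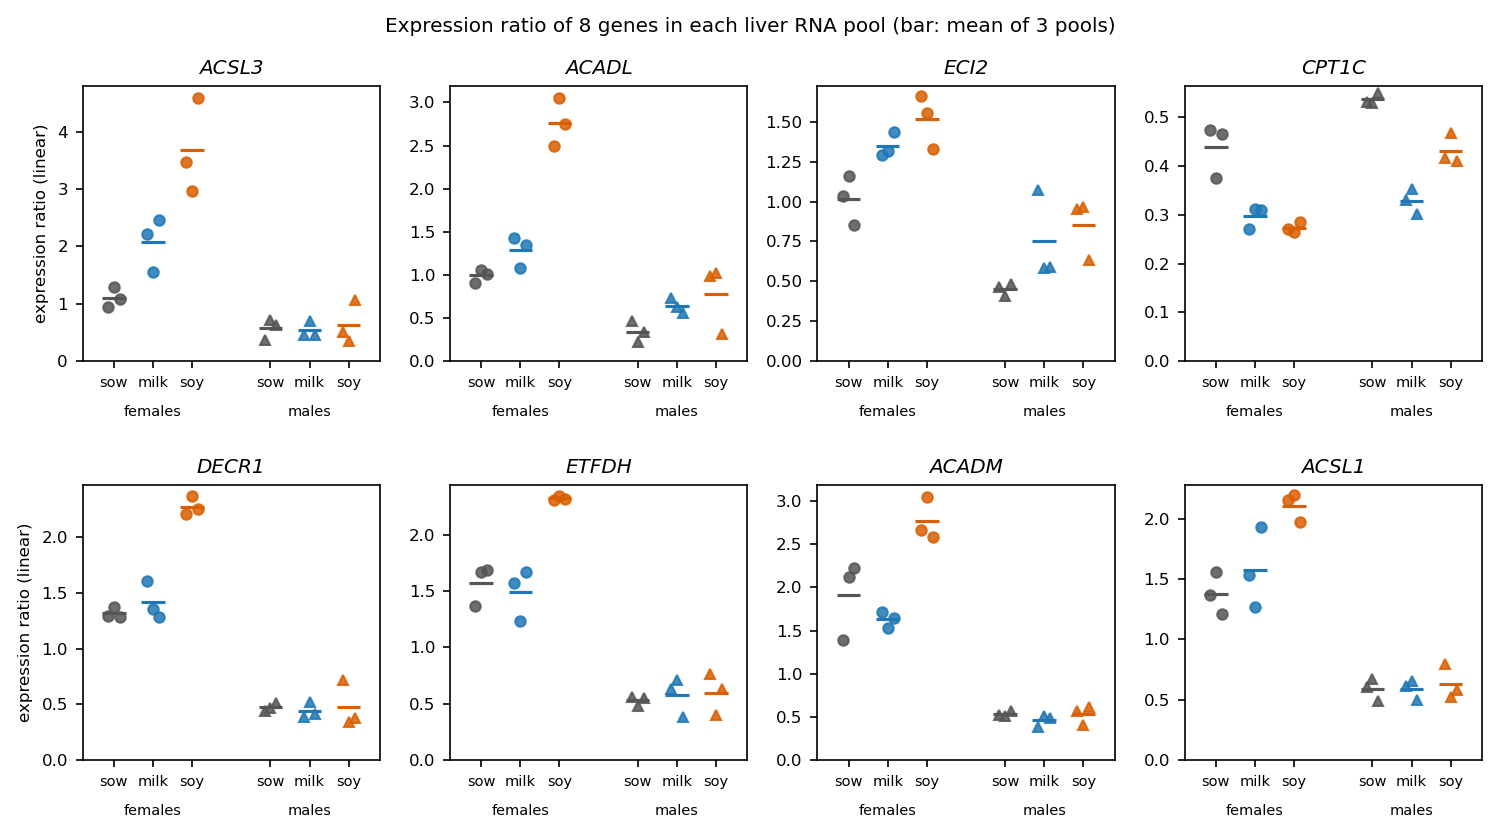
Expression ratio (linear, vertical axis from 0) of 8 genes in each of the 18 liver RNA pools; circles are females, triangles males, colours the diets, and bars the means of 3 pools. Female soy pools stand above all other female pools for ACSL3, ACADL, DECR1, ETFDH, ACADM and ACSL1, whereas CPT1C is highest in the sow pools of both sexes.

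Of the 6 genes listed under the carnitine shuttle, only CPT1C passed the threshold. CPT1C was among the 15 members with a median ratio below 1 (0.3645). Its ratio was 0.475, 0.376 and 0.465 in female sow pools, 0.271, 0.312 and 0.31 on milk formula, and 0.27, 0.264 and 0.286 on soy formula. In males it was 0.532, 0.53 and 0.55 on sow milk, 0.33, 0.353 and 0.301 on milk formula, and 0.416, 0.468 and 0.411 on soy formula. Every formula pool of either kind lay below every sow pool of its sex, with no overlap. The difference from sow milk was -0.63 ± 0.10 on milk formula (adjusted p = 0.00189) and -0.50 ± 0.10 on soy formula (adjusted p = 0.00602). In females alone it was -0.55 ± 0.11 (adjusted p = 0.0493) and -0.68 ± 0.11 (adjusted p = 0.00561), and in males alone -0.72 ± 0.20 and -0.32 ± 0.20 (adjusted p = 0.413 and 0.788). The female call on milk formula was lost in 13 of 18 alternatives. The 3 probe sets of CPT1C differed in what they showed. Another gave -0.42 and -0.44 (adjusted p = 0.154 and 0.0559), and the remaining one gave 0.22 and 0.01. With the mean of the 3 probe sets, the calls over both sexes ended (-0.28, adjusted p = 0.219, and -0.31, adjusted p = 0.0712).

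No other member of the shuttle passed in any comparison. CPT1A, the liver isoform that sets the rate of entry of long-chain fatty acids into mitochondria, had ratios of 1.06, 1.20 and 1.17 in female sow pools, 1.57, 1.33 and 1.64 on milk formula and 1.56, 1.20 and 1.09 on soy. Female milk formula pools were above the sow pools and soy pools overlapped both. In males CPT1A ran from 0.505 to 0.721 on sow milk, 0.629 to 0.864 on milk formula and 0.583 to 0.938 on soy. Over both sexes the difference was 0.31 ± 0.14 on milk formula (adjusted p = 0.485) and 0.23 ± 0.14 on soy formula (adjusted p = 0.512). CPT2, which releases acyl-CoA inside the mitochondrion, differed by 0.03 and -0.05, CRAT, the acetyl transferase, by 0.07 and 0.04, and SLC25A20, the carnitine-acylcarnitine exchanger, by -0.17 and 0.11. CPT1B, the muscle isoform, differed by -0.24 and -0.23, with all formula pools below all sow pools in males only.

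The acyl-CoA dehydrogenase family, taken by symbol, includes the enzymes of the first step of the cycle. Of its 9 genes here, ACADL alone rose over both sexes. In females its ratio was 0.91, 1.06 and 1.01 on sow milk, 1.43, 1.08 and 1.35 on milk formula and 2.49, 3.05 and 2.75 on soy formula, with no overlap between any 2 diets. In males it was 0.461, 0.221 and 0.338 on sow milk, 0.734, 0.629 and 0.559 on milk formula and 0.99, 1.02 and 0.316 on soy formula. Male soy pools 1 and 2 were the highest of their sex, and pool 3 lay within the range of the sow pools. The soy-against-sow difference was 1.27 ± 0.24 over both sexes (adjusted p = 0.00389), 1.47 ± 0.12 in females (adjusted p = 1.6e-04) and 1.07 ± 0.40 in males (adjusted p = 0.529). It stayed past the threshold in all 27 alternatives over both sexes. Male soy pool 3 bears on the other 2 contrasts. Milk formula against sow milk gave 0.67 ± 0.24 (adjusted p = 0.290) with it and an adjusted p of 0.0428 without it, and soy against milk formula 0.60 ± 0.24 (adjusted p = 0.326) with it and 0.88 (adjusted p = 0.0136) without it. In females alone soy exceeded milk formula by 1.11 ± 0.12 (adjusted p = 0.00478).

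ACADM, the medium-chain dehydrogenase, had female ratios of 1.39, 2.12 and 2.23 on sow milk, 1.71, 1.53 and 1.65 on milk formula and 2.66, 3.05 and 2.58 on soy formula. Soy pools were above all others, and sow and milk formula pools overlapped. The rise on soy against milk formula was 0.76 ± 0.16 (adjusted p = 0.0418) in females, and it was lost in 11 of 18 alternatives. Against sow milk the female difference was 0.56 ± 0.16 (adjusted p = 0.0691). Male pools ran from 0.384 to 0.615 without order by diet. Over both sexes ACADM differed between soy and milk formula by 0.48 ± 0.13 (adjusted p = 0.119), which became 0.57 (adjusted p = 0.0481) without male soy pool 2. ACADSB, the dehydrogenase of short branched chains, was the only dehydrogenase with every soy pool above every sow pool in both sexes. It ran from 1.08 to 1.71 on sow milk and 1.78 to 2.01 on soy in females, and from 0.47 to 0.629 and 0.684 to 0.917 in males. The difference was 0.45 ± 0.13 (adjusted p = 0.0563), and a second ACADSB probe set gave 0.53 ± 0.13 (adjusted p = 0.0243). The very long-chain dehydrogenase ACADVL differed on soy formula by 0.14 ± 0.11 and the short-chain ACADS by 0.16 ± 0.11, and both had all female soy pools above all other female pools. ACAD8, ACAD9, ACAD10 and ACAD11 lay between -0.12 and 0.22.

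The list for later mitochondrial steps, in part taken by symbol, held 9 genes, and none passed over both sexes. DECR1, the reductase needed for polyunsaturated fatty acids, had ratios of 1.30, 1.38 and 1.29 in female sow pools, 1.61, 1.36 and 1.28 on milk formula, and 2.20, 2.36 and 2.25 on soy formula. Soy pools stood clear of the 6 others, which overlapped. The rise was 0.78 ± 0.10 against sow milk (adjusted p = 0.00169) and 0.69 ± 0.10 against milk formula (adjusted p = 0.0100). In males the ratio was 0.439 to 0.515 on sow milk, 0.384 to 0.523 on milk formula, and 0.721, 0.342 and 0.374 on soy formula (difference from sow milk -0.07 ± 0.28, adjusted p = 0.986). The male difference minus the female one was -0.85 ± 0.30 (adjusted p = 0.489). It became -1.19 (adjusted p = 0.0401) without male soy pool 1, the one with 0.721.

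Of these 9 genes, DECR1 alone passed in any comparison. HADHA and HADHB, the subunits of the trifunctional protein, differed on soy formula by 0.11 ± 0.15 and -0.00 ± 0.14, HADH, the hydroxyacyl dehydrogenase of shorter chains, by -0.02 ± 0.12, and ECI1, the mitochondrial isomerase, by 0.06 ± 0.15. ACAA2, the mitochondrial thiolase, had the largest negative difference of an uncalled member, -0.58 ± 0.25 (adjusted p = 0.285) on soy formula. Its female ratios of 2.74, 1.95 and 1.39 on sow milk, 1.67, 1.19 and 0.686 on milk formula and 1.34, 2.17 and 1.06 on soy formula overlapped, and the male soy pools (0.34 to 0.605) lay below all male milk formula pools (0.619 to 1.01).

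ETFA and ETFB form the electron transfer flavoprotein, and ETFDH passes its electrons to ubiquinone. ETFDH had ratios of 1.37, 1.67 and 1.69 in female sow pools, 1.57, 1.23 and 1.67 on milk formula, and 2.31, 2.34 and 2.32 on soy formula. The soy pools lay close together and above all others. ETFDH rose in females by 0.57 ± 0.12 against sow milk (adjusted p = 0.0228) and 0.65 ± 0.12 against milk formula (adjusted p = 0.0279). These calls were lost in 5 and 6 of 18 alternatives, including without each soy pool in turn, and a second ETFDH probe set gave 0.17 ± 0.10 against sow milk (adjusted p = 0.429). In males ETFDH ran from 0.386 to 0.769 with overlap. Over both sexes the 3 genes differed on soy formula by 0.18 (ETFA), 0.05 (ETFB) and 0.34 (ETFDH), and none passed. In female pools all 3 genes were higher on soy formula than in every sow and milk formula pool. Among named genes, 17.2% were higher in every female soy pool than in every female sow pool. No share of named genes above both other diets is given here.

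Among 5 genes of peroxisomal oxidation, ECI2 rose and no other passed. Female ECI2 ratios were 1.03, 1.16 and 0.851 on sow milk, 1.30, 1.32 and 1.44 on milk formula, and 1.66, 1.56 and 1.33 on soy formula. Male ratios were 0.463, 0.405 and 0.484, then 1.07, 0.583 and 0.592, then 0.955, 0.967 and 0.634. Every formula pool was above every sow pool in both sexes, and the formulas overlapped. The difference on soy formula was 0.74 ± 0.15 over both sexes (adjusted p = 0.00994), 0.59 ± 0.13 in females (adjusted p = 0.0205) and 0.90 ± 0.28 in males (adjusted p = 0.364). On milk formula it was 0.55 ± 0.15 (adjusted p = 0.137). A second ECI2 probe set gave 0.28 ± 0.14 on soy formula, and with the mean of both the call over both sexes ended (0.51, adjusted p = 0.0585). The female call was lost in 6 of 18 alternatives. ACAA1, the peroxisomal thiolase, differed by 0.41 ± 0.16 (adjusted p = 0.225). HSD17B4, the peroxisomal bifunctional enzyme, had 1.5, 1.66 and 1.55 in female sow pools and 2.17, 1.88 and 1.71 in female soy pools, against 0.592, 0.577 and 0.656 and 0.525, 0.537 and 0.524 in males. Soy pools were all higher in females and all lower in males. The male difference minus the female one was -0.49 ± 0.23 (unadjusted p = 0.0442, adjusted p = 0.622).

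The 7 peroxins and 4 genes of the PPAR group had no call in any comparison. PEX7, the receptor that imports enzymes with the second type of targeting signal, differed by 0.33 ± 0.15 on milk formula and 0.12 ± 0.15 on soy formula, and PEX19, a chaperone of peroxisomal membrane proteins, by 0.14 ± 0.12 and 0.10 ± 0.12. The widest values on soy formula were 0.43 ± 0.16 (adjusted p = 0.190) for PEX16 and -0.43 ± 0.15 (adjusted p = 0.155) for PEX2. PPARA had ratios of 0.239 to 0.258 in female sow pools, 0.23 to 0.304 on milk formula and 0.24 to 0.309 on soy formula, with overlap. In males they were 0.229, 0.152 and 0.186 on sow milk, 0.275, 0.23 and 0.403 on milk formula, and 0.156, 0.155 and 0.168 on soy formula. Male milk formula pools were above all others and soy pools lay in the lower part of the sow range. Over both sexes PPARA differed by 0.39 ± 0.14 on milk formula (adjusted p = 0.288), by -0.05 ± 0.14 on soy formula (adjusted p = 0.929) and by -0.44 ± 0.14 between soy and milk formula (adjusted p = 0.174). PPARD and PPARG differed by 0.12 and 0.08 on milk formula and -0.05 and 0.16 on soy formula. PPARGC1A, a coactivator of oxidative genes, differed by 0.11 ± 0.28 and 0.05 ± 0.28. None of the 5 thioesterases, which undo activation, passed through its representing probe set. ACOT8, the peroxisomal one, differed by 0.20 and 0.18, and ACOT13 by -0.58 ± 0.19 between soy and milk formula (adjusted p = 0.216). A second ACOT6 probe set did pass on soy formula (0.97 ± 0.15, adjusted p = 9.6e-04), where the representing one gave 0.18 ± 0.11. A second PEX13 probe set passed in females on soy formula (0.55 ± 0.10, adjusted p = 0.0120), where the representing one gave 0.04 ± 0.09.

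**Figure D3:**
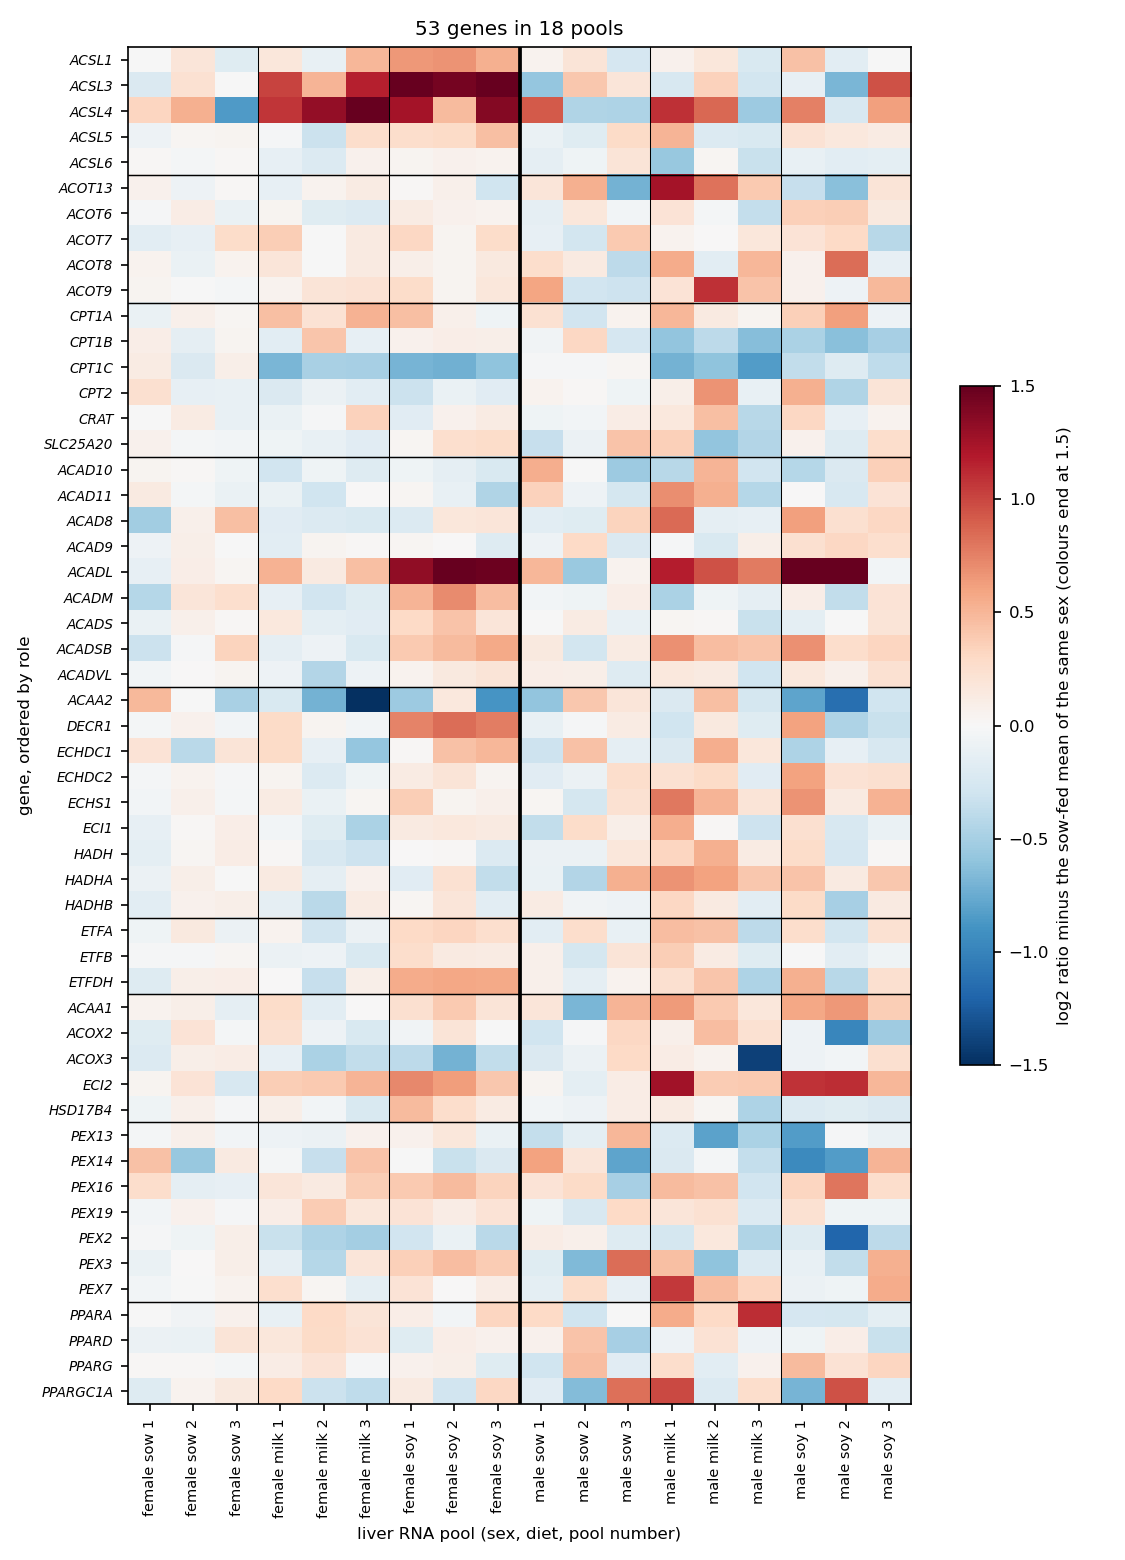
Log2 ratio of the 53 genes (rows, grouped by role) in the 18 pools (columns) minus the sow-fed mean of the same sex; red is higher, blue lower, and colours end at 1.5 on the log2 scale. ACSL3 and ACADL are the reddest rows in the female soy columns, CPT1C is blue in all formula columns of both sexes, and the male columns vary more among pools of 1 diet.

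Counted over pools, ACADSB and ECI2 were higher in every soy pool than in every sow pool of both sexes and CPT1C was lower, 3.77% and 1.89% of the members against 2.82% and 2.69% of named genes. On milk formula the higher genes were ACADL and ECI2 and the lower one CPT1C (3.77% and 1.89%, against 1.67% and 1.23%). Between the formulas no member separated in both sexes, where 0.99% of named genes were higher on soy and 1.82% lower. Within females 20 members (37.7%) were higher in every soy pool than in every sow pool and 3 (5.66%) lower, beside 17.2% and 15.7% of named genes. Within males 2 (3.77%) were higher and 3 (5.66%) lower, beside 6.56% and 6.92% of named genes. By role, the 20 genes comprise all 3 electron transfer genes, 5 of the 9 dehydrogenases and 4 of the 5 synthetases. The rest are 3 of the 7 peroxins, 3 of the 5 peroxisomal enzymes and 2 of the 9 later mitochondrial genes. Separation can be small: the synthetase ACSL6 had female ratios of 0.153 to 0.158 on sow milk and 0.161 to 0.163 on soy formula (log2 difference 0.05). Shares by role were not tested.

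Across all 53 members the median difference on soy formula against sow milk was 0.11 over both sexes, where the median of all named genes was 0.00. Of the members, 36 (67.9%) lay above 0, as did 50.6% of named genes. In females 39 lay above 0 with a median of 0.12, and in males 33 with a median of 0.04. Each female soy pool had a member median of 0.13, 0.14 and 0.13 above the sow mean, while male soy pools had 0.16, -0.13 and 0.20. Male soy pool 2 was therefore low and the other two high, and the male pools did not show 1 direction. The medians of all named genes were 0.0605, -0.0701 and -0.0080 in the male soy pools, and 0.0053, 0.0093 and -0.0026 in the female soy pools. On milk formula the median of the members was 0.03 (30 above 0) beside 0.02 for all named genes. The comparisons of milk and soy formula with sow milk share the sow pools. Female and male pools share none, and over the 53 genes the soy-against-sow differences of the sexes had Pearson's r = 0.47, with 35 genes of the same sign; this is a description across genes, which are not independent replicates.

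**Figure D4:**
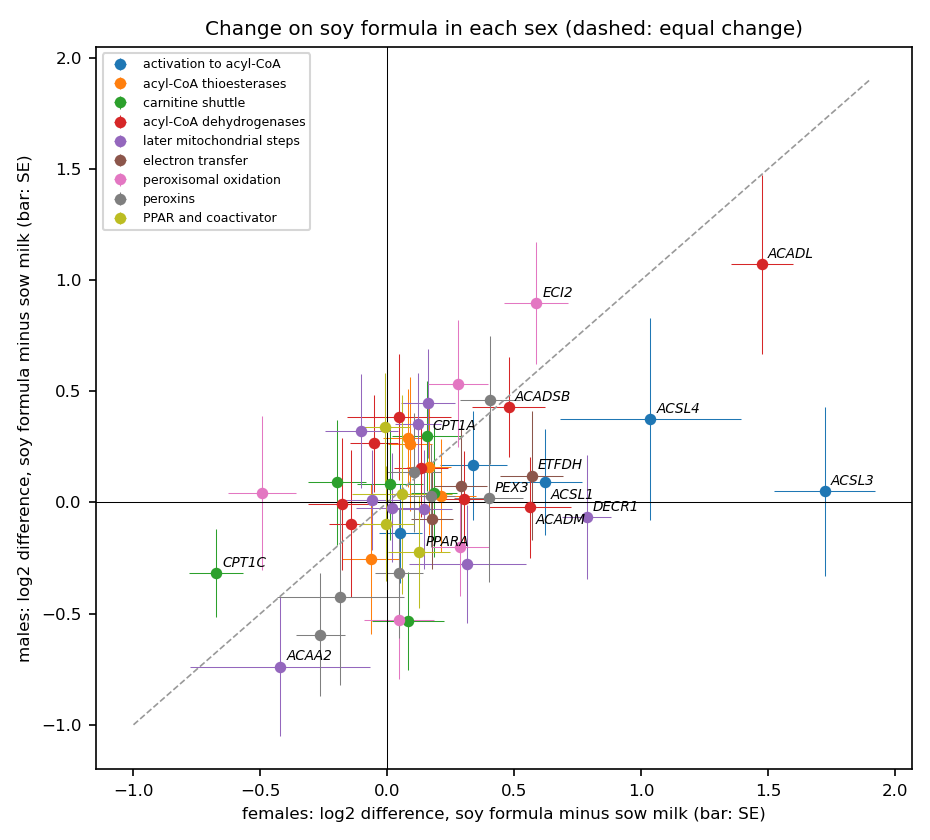
Difference of each of the 53 genes on soy formula against sow milk in females (horizontal axis) and males (vertical axis), log2, with standard errors from the fit to each sex, coloured by role; the dashed line marks equal change. ACADL and ECI2 lie high in both sexes, while ACSL3 (1.72 and 0.05) and DECR1 (0.78 and -0.07) lie far from 0 in females only; the difference between sexes passed the threshold for no gene.

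**Figure D5:**
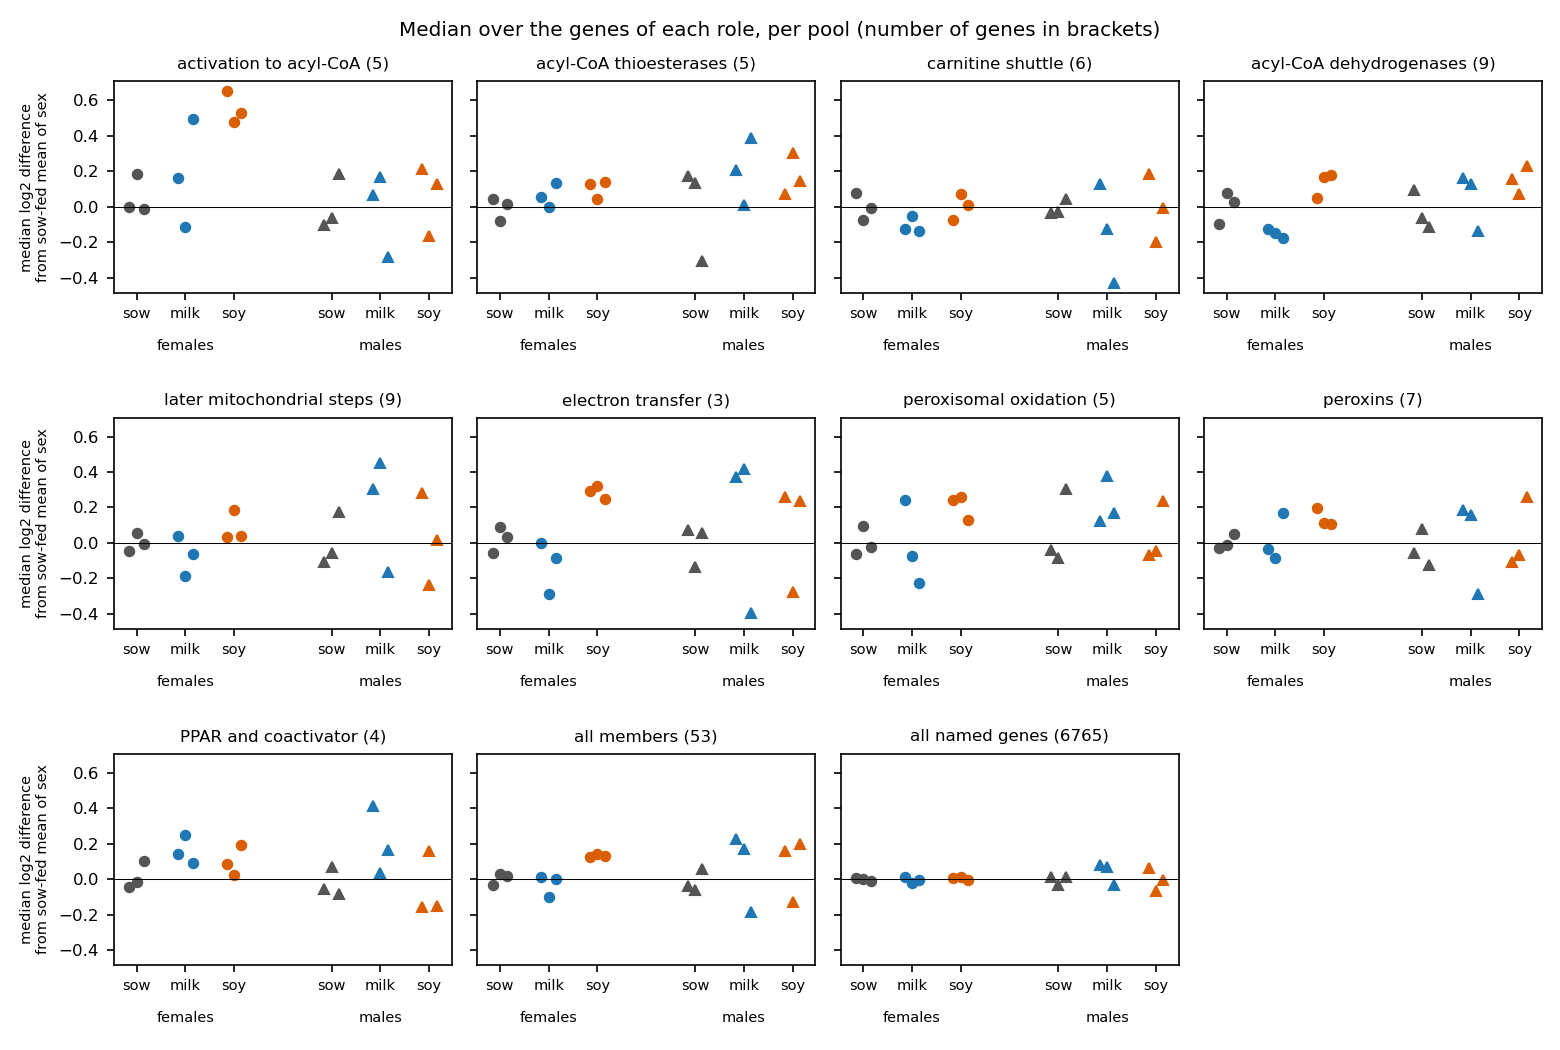
Median log2 difference from the sow-fed mean of the same sex over the genes of each role (vertical axis), per pool; circles are females, triangles males, colours the diets. The 3 female soy pools lie above all female sow and milk formula pools for electron transfer and for all 53 members (0.13 to 0.14). For all 53 members the male pools of each diet fall on both sides of 0, as they do for all named genes.

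Other RNA moved with soy formula beside these genes. Of named genes, 2.94% were called lower on soy formula against sow milk over both sexes. In females 6.22% were called higher and 4.95% lower. Macrophage markers were lower, with 5 of 8 called over both sexes (median -0.69). Their summed ratio was 11.5 to 13.2 in female sow pools and 6.54 to 8.46 in female soy pools, and 5.74 to 7.73 and 4.33 to 5.16 in males. Such sums add ratios of different genes, each with its own unstated divisor. They serve to compare pools for 1 list and do not measure the amount of a cell type. Endothelial markers were lower for 3 of 8 (median -0.47), with sums of 9.01 to 10.02 and 6.01 to 6.92 in females and 5.66 to 7.14 and 3.96 to 5.89 in males. Of 10 hepatocyte markers 1 was lower (median -0.14), and their sums were 14.0 to 16.0 and 12.6 to 14.0 in females and 7.36 to 8.94 and 6.66 to 8.11 in males. Of 8 stellate and fibroblast markers DCN and RGS5 were lower (median of the list 0.00), with sums of 6.99 to 10.3 and 6.23 to 6.68 in females and 5.96 to 6.60 and 5.73 to 5.92 in males. In females 1 of 4 erythroid markers, HBB, was higher (0.85 ± 0.15, adjusted p = 0.00774). Female erythroid sums were 1.33 to 2.36 on sow milk, 2.83 to 12.7 on milk formula and 2.25 to 7.85 on soy formula. Of 7 lymphocyte markers 1, CD4, was lower in females (-0.48 ± 0.10, adjusted p = 0.0194). No cholangiocyte or granulocyte marker was called on soy formula against sow milk. Cholangiocyte sums were 3.02 to 3.19 and 2.23 to 2.44 in females, and 1.37 to 1.62 and 1.435 to 1.65 in males. Granulocyte sums were 0.732 to 0.822 and 0.674 to 0.722 in females, and 0.83 to 1.098 and 0.716 to 0.989 in males. Hybridisation controls averaged 0.316 to 0.367 in female sow arrays and 0.281 to 0.299 in female soy arrays, and 1.51 to 2.19 and 2.19 to 3.02 in males. In females the 28S ribosomal RNA probe set read 0.159 to 0.252 on sow milk, 0.136 to 0.383 on milk formula and 0.0773 to 0.155 on soy formula. The part of these differences in the changes of the members was not tested.

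The members also differed between the sexes in level. All 9 female pools lay above all 9 male pools for 23 members (43.4%, against 27.1% of named genes), among them HADHA, CPT1A, ACADM and ETFDH. The reverse held for 1 member, PPARD (1.89%, against 2.29%). The female mean was above the male mean for 42 of the 53 (79.2%, against 67.9% of named genes). Hybridisation controls and ribosomal RNA separated the same arrays, so sex and array differences cannot be told apart for these levels.

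Related pathways were counted by lists drawn up from general knowledge. Of 21 measured genes among 38 other peroxisomal enzymes and transporters, 2 rose over both sexes on soy formula. Of named genes, 2.68% were called higher there. They were ABCD3, a fatty acid transporter of the peroxisomal membrane (0.62 ± 0.15, adjusted p = 0.0247), and LONP2, the peroxisomal Lon protease (0.50 ± 0.13, adjusted p = 0.0474). In females 6 of the 21 rose, also PHYH, which starts the breakdown of phytanic acid (0.67 ± 0.10, adjusted p = 0.00372), AMACR, SCP2 and SLC25A17. HAO1, a glycolate oxidase, fell in females (-0.48 ± 0.12, adjusted p = 0.0343). Beside these, 6.22% of named genes were called higher and 4.95% lower in females. Against milk formula the female soy pools had 3 higher, PHYH, LONP2 and CAT, the catalase (0.55 ± 0.09, adjusted p = 0.0163), beside 2.32% of named genes. The median over the 21 was 0.13 over both sexes and 0.20 in females. None of the 3 measured genes of ketone handling and none of the 4 of carnitine synthesis and uptake passed over both sexes or in females.

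Of 12 measured PPAR alpha targets outside the members, ANGPTL4, an inhibitor of lipoprotein lipase, rose on milk formula (1.29 ± 0.28, adjusted p = 0.0384), VNN1, a pantetheinase, rose on soy formula (0.56 ± 0.12, adjusted p = 0.0109), and TXNIP fell on soy formula against sow milk (-1.03 ± 0.15, adjusted p = 3.0e-04) and against milk formula (-0.95 ± 0.15, adjusted p = 0.00289). FABP1, the liver fatty acid binding protein, differed by 0.68 ± 0.20 (adjusted p = 0.0766) and PDK4, a kinase that restrains pyruvate oxidation, by -0.43 ± 0.24 (adjusted p = 0.453). The list's median was -0.10 on soy formula and -0.08 on milk formula. Among 17 nuclear receptors and coregulators, HNF4A, a regulator of hepatocyte genes, rose on milk formula (0.96 ± 0.16, adjusted p = 0.00530) and soy formula (1.20 ± 0.16, adjusted p = 2.2e-04), and LPIN1, a phosphatidate phosphatase and coactivator, on soy formula (1.02 ± 0.23, adjusted p = 0.0167). Of 11 genes of fatty acid uptake and binding, FABP3 rose on soy formula (0.81 ± 0.21, adjusted p = 0.0442). Of 10 genes of lipid droplet breakdown, CIDEB, a droplet protein, fell (-0.53 ± 0.12, adjusted p = 0.0149). Of 15 genes of branched-chain and propionate breakdown, IVD, the isovaleryl-CoA dehydrogenase, fell on soy formula (-0.57 ± 0.15, adjusted p = 0.0338), while MUT and BCKDHB rose on soy formula relative to milk formula (0.55 ± 0.12 and 0.56 ± 0.12, adjusted p = 0.0482 and 0.0367). In the opposed pathway, fatty acid synthesis and desaturation, 9 of 17 rose on soy formula and 5 on milk formula over both sexes, and none fell. The genes of this last list are not named here. For all these lists, 2.68% of named genes were called higher and 2.94% lower on soy formula over both sexes. On milk formula these shares were 0.887% and 0.606%, and between soy and milk formula 0.443% and 0.828%.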

How the data were processed

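Liver RNA (8 ug per sample, per the labels) was hybridised to Affymetrix porcine arrays. The authors deposited linear expression ratios, 1 value for each probe set on each array. The submitters' processing notes name GCOS and RMA; their versions and the divisor are not stated in what was used here. Of 24123 probe sets, 188 controls were left out. Of the rest, 10069 named 1 gene, 198 several and 13668 none. All 53 member gene IDs matched RefSeq symbols. Array medians ran from 0.301 to 0.309, and ratios were taken to log2 without further scaling.

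A model with 1 mean per group was fitted to all 18 arrays with empirical Bayes variances (limma 3.58.1, R 4.3.3), and to the 9 arrays of a sex for within-sex comparisons, because pools varied more among males. P-values were adjusted by Benjamini-Hochberg over 23935 probe sets. Fitting was tested on simulated data. Standard errors follow the ± sign in log2 differences. Members, lists and tests were chosen with earlier results of these data known. Named genes are all called members, a fixed set of pathway genes and the 3 largest uncalled changes per comparison. Up to 4 called genes of each other list are named, except for fatty acid synthesis. Further members are named to complete a role, to show separated pools or to show a probe set that disagreed. Pools with the same number did not deviate together (median r -0.01 over 18 pairs), so they were not treated as pairs. Alternatives were trended and robust variances, quantile normalization, median centring, array weights, pool number as a block, without the 40% of probe sets of lowest mean log2 ratio, the mean of a gene's probe sets, 0.1 added to the ratio, other sets of arrays in the fit, a 1.5-fold limit, and each array left out. Plots were drawn with matplotlib 3.10.9; pandas 2.3.3 and numpy 2.4.6 under Python 3.11.15 served for counting. A planned description of sequence features was not run, and levels of 1 gene against another were not compared.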

Additional observations from a re-analysis of the deposited data

How the results depend on the processing

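The count of members called over both sexes on soy formula against sow milk was 4. It stayed within 1.5 times under all 10 alternatives and with each array left out (3 to 5), but the genes counted could change. With the mean of a gene's probe sets, CPT1C and ECI2 were no longer called. ACADSB (adjusted p = 0.0257) and ACOT6 (adjusted p = 0.0075) were called in that setting. Over both sexes averaging a gene's probe sets took milk formula against sow milk from 1 to 0. Left-out arrays gave 1 to 2 on milk formula against sow milk (2 without male soy pool 3), 0 to 1 between the formulas (1 without male soy pool 2 or 3), and 0 to 1 for the sex difference on soy formula against sow milk (1 without male soy pool 1). For females on milk formula against sow milk the count of 1 became 2 with trended variances and with quantile normalization, and 0 with array weights, the replicate block, the mean of probe sets, a pseudocount, all 18 arrays in the fit and the 1.5-fold limit. It was 0 to 1 with arrays left out, and 1 only without female sow pool 2. All 18 arrays in the fit gave 3 (from 7) for females on soy formula against sow milk, 0 (from 4) for soy against milk formula, and 1 (from 0) in each male comparison. Left-out arrays gave 4 to 8 (4 without female soy pool 1 or 2) and 2 to 5 (2 without female milk formula pool 1 or 2 or any soy pool), and 0 to 0 in males. The pool number as a block gave 3 calls on soy formula over both sexes and 6 in females. It ended the call of ACSL3 over both sexes. In females it ended those of ACSL1, of ACADM between the formulas and of CPT1C on milk formula. Over both sexes the CPT1C call on milk formula was kept with the block (adjusted p = 0.00832). No alternative reversed a called direction. The causes were not tested. Signal over background cannot be read from ratios.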
